A study of Mus musculus with 9 samples.

Results

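The cytosolic ribosomal protein genes were examined together with the pseudogenes that copy them. Members were the table rows whose symbol begins with Rpl or Rps followed by a digit, or is Rplp0, Rplp1, Rplp2 or Rpsa. The ribosomal protein S6 kinases, Rps19bp1 and Rpl7l1 were left out because they share only the letters of the name. This rule found 167 of 10716 rows. They comprise 77 canonical genes, of which 31 encode proteins of the small subunit and 46 encode proteins of the large subunit, 81 rows with a pseudogene symbol (-ps), and 9 paralogues or copies that carry no -ps (Rpl22l1, Rps27l, Rpl36al, Rps3a2, Rps3a3, Rpl6l, Rps12l1, Rps27rt and Rpl35rt). The protein-coding paralogues Rpl3l, Rpl10l and Rpl39l have no row and were not analysed here.

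The data are RNA-seq libraries of C2C12 myotubes, the multinucleate muscle cells into which this mouse myoblast line fuses. Cells received vehicle, dexamethasone (50 µM) or that same dose of dexamethasone with the compound the labels call THSG (10 µM), and were compared after 24 h, with 3 libraries in each group. Dexamethasone is a synthetic glucocorticoid that is widely used to cause atrophy of cultured myotubes, and the comparisons address what it does to the transcriptome and whether THSG alters that. All cells are of 1 line, no group received THSG alone, and the labels do not say whether the libraries of a group came from separate cultures, so the p-values measure only the spread between these libraries.

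A cytosolic ribosome is built from a small subunit, which reads the mRNA, and a large subunit, which joins amino acids. Most ribosomal proteins are present once in each ribosome, while the stalk proteins encoded by Rplp1 and Rplp2 are present in more than one copy. The mRNAs of these proteins start with a pyrimidine-rich stretch, the 5′ terminal oligopyrimidine (TOP) motif, through which the mTORC1 pathway controls their translation together. Ribosomal protein mRNAs are among the most frequent sources of processed pseudogenes in mammals, that is, intronless genomic copies of a spliced mRNA. In muscle, the number of ribosomes is one determinant of the capacity to make protein and so of fibre mass.

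Every value in the table was above 1 FPKM (fragments counted per unit of transcript length and of library size, a unit inferred from the values and not stated in the labels), and the summed values of the libraries ran from 400218 to 422379. Read counts cannot be recovered from this unit, so the depth behind each value is unknown. All 12 myotube markers were present, with sums of 9048 to 9839 FPKM in the vehicle libraries 10258 to 10976 with dexamethasone and 10906 to 11014 with dexamethasone plus THSG, while none of 6 macrophage and none of 6 endothelial markers had a row. The sum of the 7 of 10 proliferation markers with a row was 56.1 to 64.96 FPKM with vehicle, 19.4 to 25.4 with dexamethasone and at most 23.6 with dexamethasone plus THSG, and Mki67, Plk1 and Aurkb had no row. The corresponding sums of 6 of 10 fibroblast markers were 800.5 to 862, 445 to 462 and 476 to 482 FPKM, those of 2 of 6 osteoblast markers were 1702 to 1815, 618 to 658 and 659.6 to 705 FPKM, and those of 9 of 10 markers of undifferentiated myoblasts were 749.7 to 821, 656 to 691 and 696 to 705 FPKM. The sums hide opposite members: Pdgfra (1.31) and Fbln1 (0.74) of the fibroblast list and Myf5 (1.05) and Sdc4 (0.41) of the myoblast list were called higher with dexamethasone, and Col3a1 alone held 579.99 FPKM of the vehicle fibroblast sum on average. Of 8 adipocyte markers 1 had a row, with 2.00 to 3.66 FPKM over all libraries. In bulk RNA, fewer cells of a type and less RNA per cell cannot be told apart. The part of these markers in the results below was not tested.

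The canonical genes were highly expressed, with means over the 9 libraries from 58.1 FPKM (Rps20) to 1339.9 FPKM (Rpl41) and a median of 384, against a median of 12.4 for all rows. The highest were Rpl41, which encodes the shortest ribosomal protein, Rps24 (1120.3 FPKM), Rplp1 (1003), Rps15 (893) and Rpl23a (741). The canonical genes thus covered a range of levels, with the middle 50% between 282 and 524 FPKM. The pseudogene rows had a median of 15.4 FPKM and a range from 1.42 to 549. The lowest were Rps7-ps2 (1.42 FPKM), Rps2-ps5 (1.66), Rpl21-ps6 (2.59), Rpl31-ps14 (2.62) and Rpl17-ps8 (2.83).

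The canonical genes together held 9.18%, 8.74% and 8.14% of the summed values in the 3 vehicle libraries. The share was 8.10%, 7.83% and 7.38% in the dexamethasone libraries, and 8.19%, 8.09% and 8.15% with dexamethasone plus THSG. The dexamethasone group lay wholly below the vehicle group, but by only a narrow margin between its highest and the lowest vehicle library, and the libraries with THSG lay between, overlapping both. Pseudogene rows added 0.898%, 0.891% and 0.810% with vehicle, 0.775%, 0.764% and 0.743% with dexamethasone, and 0.828%, 0.827% and 0.819% with dexamethasone plus THSG. The 13 mitochondrially encoded genes took 10.5% to 11.9% in vehicle, 11.4% to 13.9% in dexamethasone and 10.7% to 11.7% in dexamethasone plus THSG libraries. The highest of these, 13.9%, was dexamethasone replicate 3, which also had the lowest canonical share. A share falls when other genes take more of the library, and without the mitochondrial genes in the denominator all members together held 10.95%, 9.92% and 10.30% in the 3 groups, against 9.75%, 8.71% and 9.14% with them. On that basis dexamethasone replicate 1 (10.25%) lay just above vehicle replicate 3 (10.23%), so the groups overlapped.

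**Figure D1:**
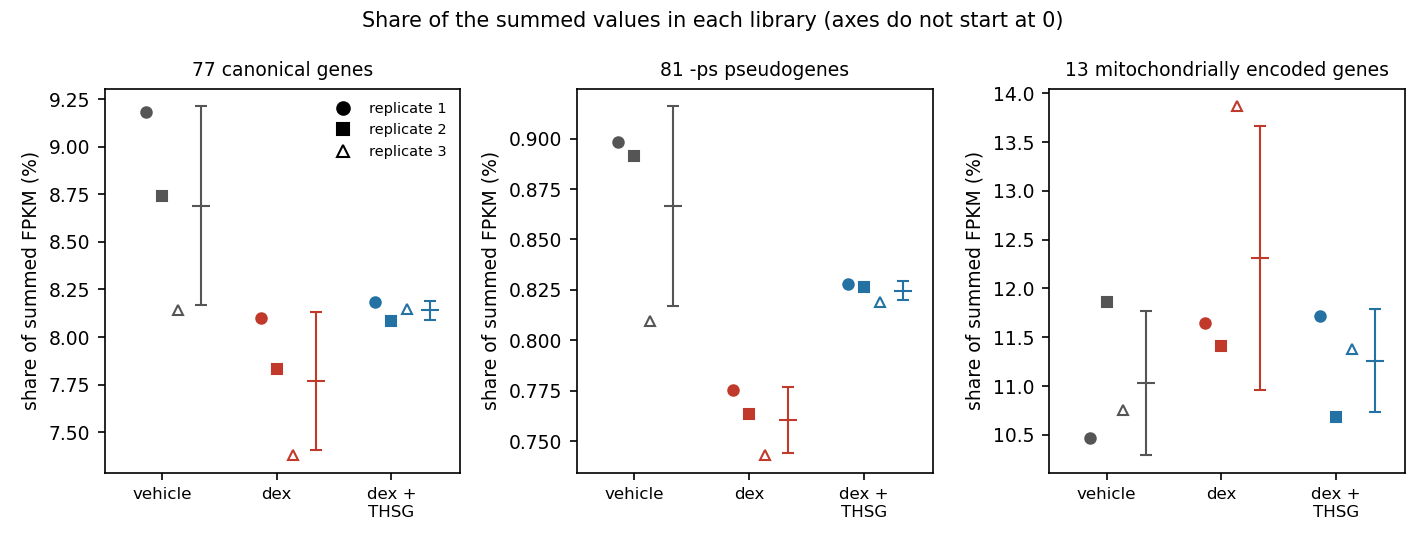
Share of the summed FPKM values in each library (percent, vertical axes not starting at 0) held by the 77 canonical genes, the 81 pseudogene rows and the 13 mitochondrially encoded genes, by group; symbols are replicates 1 to 3, and the horizontal mark with bars is the mean with SD (n = 3). The canonical shares were 8.14% to 9.18% with vehicle and 7.38% to 8.10% with dexamethasone, and dexamethasone replicate 3 had both the lowest canonical share and the highest mitochondrial share.

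Within a group the canonical genes moved together from library to library. Vehicle replicate 3 was the lowest of its group for 77 of 77 canonical genes and vehicle replicate 1 the highest for 57. On the log2 scale the median deviation of the canonical genes from their group mean was 0.10, 0.03 and -0.14 in vehicle replicates 1 to 3, 0.05, 0.01 and -0.06 with dexamethasone, and 0.02, -0.04 and 0.00 with dexamethasone plus THSG. Over all rows that deviation stayed between -0.01 and 0.01. The median coefficient of variation of the canonical genes was 9.07% in vehicle, 4.24% with dexamethasone and 4.15% with dexamethasone plus THSG, and that of all rows was 6.27%, 6.40% and 5.97%. The 77 values of a library are thus not independent of each other.

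With dexamethasone, part of the ribosomal protein set was lower and no member passed the test as higher. Against vehicle, 42 of 167 members were lower and 0 were higher at a limma adjusted p under 0.05, when 20.9% of all rows were lower and 12.7% were higher (16.5% and 16.2% under median-ratio scaling, 16.3% and 16.6% under quantile normalization). The members' share, 25.1%, thus stood near that of all rows, made up of 37.7% of the canonical genes and 13.6% of the pseudogene rows. At an unadjusted p under 0.05, 69 members were lower (27.3% of all rows) and 0 higher (16.2%). Of the canonical genes 29 of 77 were lower, 11 of 31 in the small subunit and 18 of 46 in the large subunit. The median log2 difference was -0.16 over the canonical genes and -0.05 over all rows, so the shift was small, and 76 of 77 canonical genes had a negative difference against 59.1% of all rows. For 31 of 77 canonical genes every dexamethasone library lay below every vehicle library, as it did for 27.9% of all rows.

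The count of canonical genes called lower depended on single libraries. It was 16 under median-ratio scaling, 17 without the intensity trend in the variance, 12 without vehicle replicate 1, 15 without vehicle replicate 2, 62 without vehicle replicate 3, 18 without dexamethasone replicate 2 and 13 without dexamethasone replicate 3. The libraries at the 2 ends, vehicle replicate 1 and dexamethasone replicate 3, were also left out together, a choice made after seeing the data. The canonical count was then 5, with 14.5% of all rows lower. Of the 77 genes 70 still had a negative difference, with a median of -0.09. A correction for transcript length and GC content gave 14 lower canonical genes, a median of -0.06 and 60 negative differences, with 16.2% of all rows lower. In that correction 6 of 167 members were called higher, when 17.6% of all rows were. They were Rpl10a (0.19), Rps15 (0.19), Rpl5-ps1 (0.18), Rps7-ps3 (0.20), Rps3a2 (0.14) and Rps3a3 (0.14). Through all 21 alternative settings, 5 of the canonical and coding paralogue genes stayed called lower (Rpl7a, Rpsa, Rpl36a, Rps27 and Rpl36al), as did the pseudogene rows Rps2-ps10, Rps2-ps6, Rpl3-ps1 and Rpl10-ps3.

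**Figure D2:**
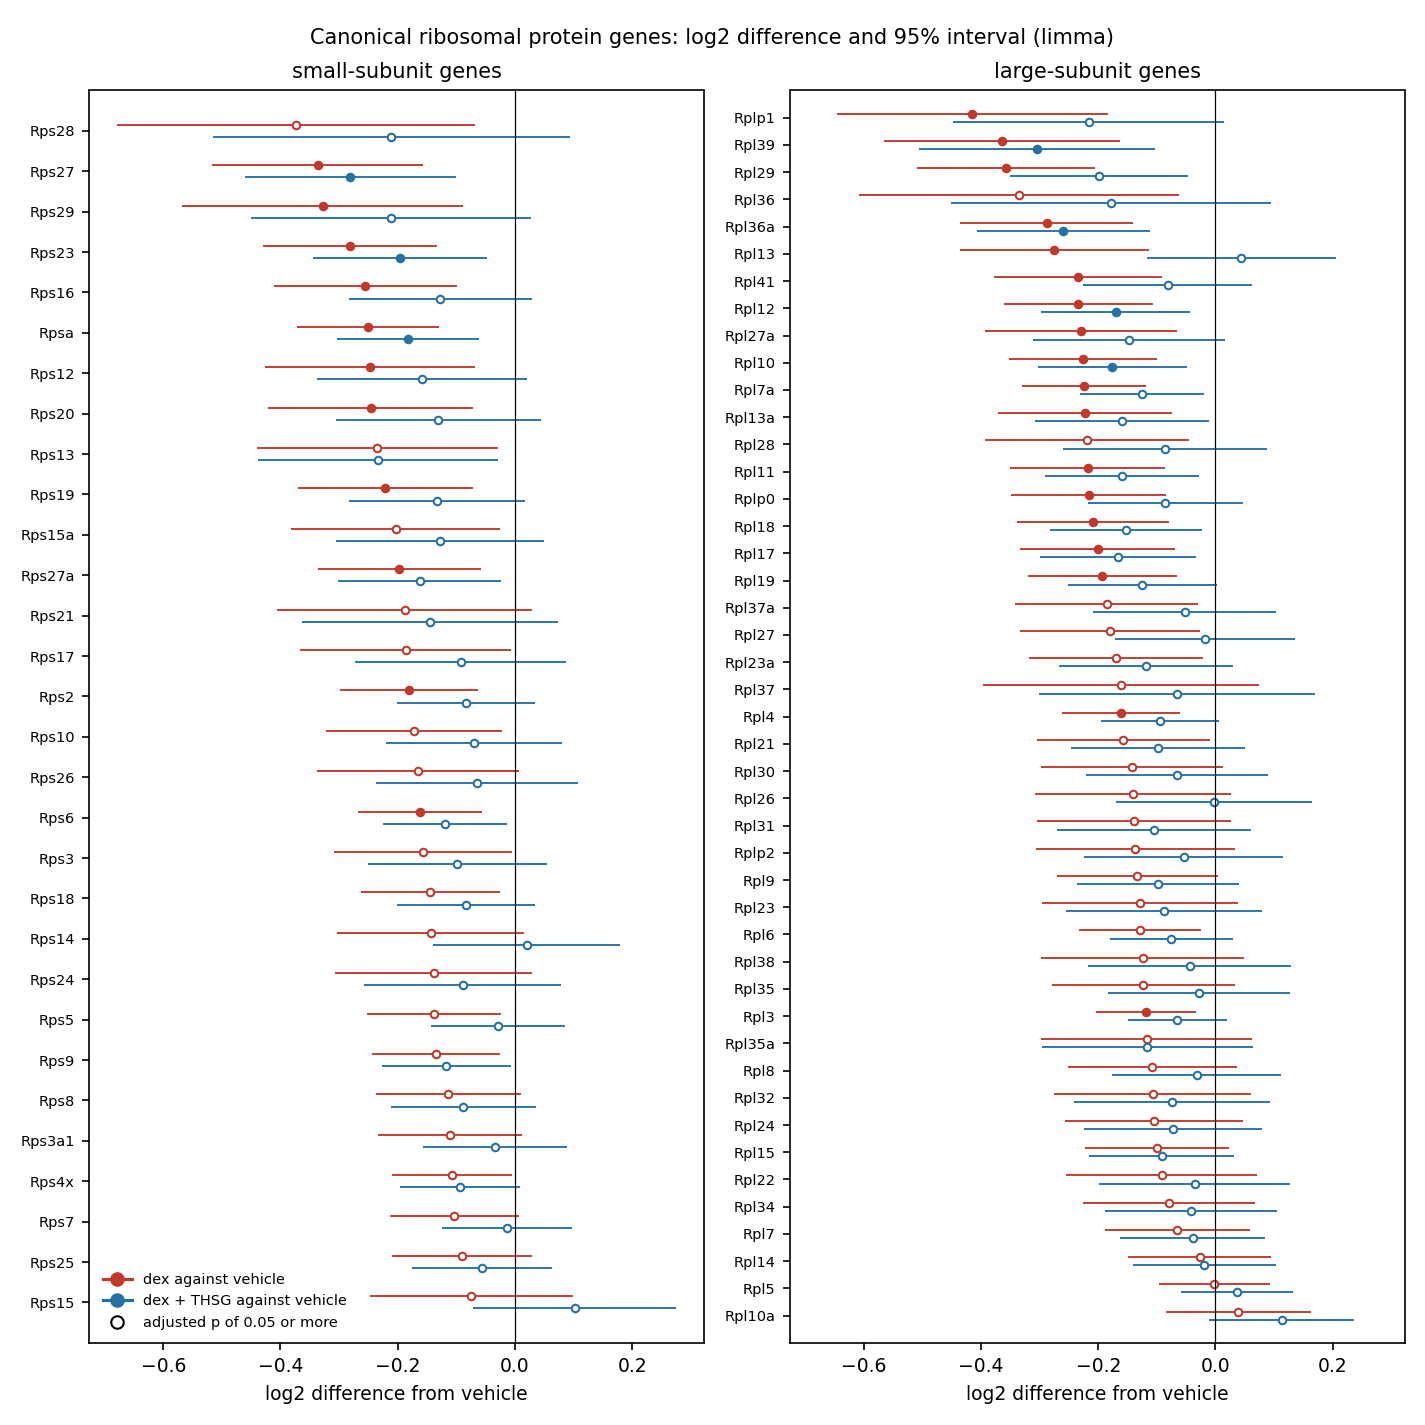
Log2 difference from vehicle (horizontal axis, on log2 of FPKM + 0.1) of 75 of the 77 canonical genes, by subunit and each ordered by its value with dexamethasone; red is dexamethasone, blue is dexamethasone plus THSG, bars are 95% intervals from limma, and open points have an adjusted p of 0.05 or more. With dexamethasone 74 of these 75 points lie below 0, from -0.42 (Rplp1) to 0.04 (Rpl10a), and 29 are filled, while 7 blue points are filled.

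Among the proteins of the P stalk, the flexible arm of the large subunit that recruits elongation factors, Rplp1 had the largest difference of any canonical gene. Its values were 1331, 1155 and 984 FPKM with vehicle, 957, 882 and 756 with dexamethasone, and 959, 1035 and 972 with dexamethasone plus THSG. Every dexamethasone library lay below every vehicle library, yet the lowest vehicle and the highest dexamethasone library were close, and the log2 difference was -0.42 ± 0.11 (SE), limma adjusted p = 0.0101. Rplp0, the stalk's anchor, was lower by a smaller step (-0.22, adjusted p = 0.0164), and Rpl12, at the stalk's base, likewise (-0.23, adjusted p = 0.00869). Rplp2, the partner of Rplp1 in the stalk, did not pass the test (-0.14, adjusted p = 0.201), and its 95% interval of -0.31 to 0.03 holds both no change and a change like that of Rplp0. In all, 3 of 4 stalk genes were lower, against 37.7% of the canonical genes and 20.9% of all rows.

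Of the 5S ribonucleoprotein pair, Rpl11 was called lower and Rpl5 was not. Rpl11 and Rpl5 are assembled with 5S rRNA into the large subunit, and when free they bind the ubiquitin ligase Mdm2. Rpl11 was 344, 319 and 286 FPKM with vehicle and 277, 275 and 261 with dexamethasone, without overlap (-0.22 ± 0.06 (SE), limma adjusted p = 0.0154). Rpl5 was 199, 214 and 195 FPKM with vehicle and 206, 199.5 and 201 with dexamethasone. The Rpl5 libraries of the 2 groups were intermingled, and its difference was -0.00 with a 95% interval of -0.10 to 0.09. Whether Rpl5 and Rpl11 differ from each other in response was not tested.

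Around the exit tunnel of the large subunit, through which the new chain leaves, 4 of 9 genes were lower (44.4%), near the share of all canonical genes. Rpl39, a very short protein that lines the tunnel, had the largest difference among them. It measured 286, 283 and 239 FPKM with vehicle, 239, 206 and 185 with dexamethasone, and 231, 215 and 208 with dexamethasone plus THSG. The dexamethasone libraries were below the vehicle libraries, again with almost equal neighbours at the edge, and the libraries with THSG were below all vehicle libraries too (-0.36 ± 0.09 (SE), limma adjusted p = 0.00971 with dexamethasone). Rpl17 (-0.20, adjusted p = 0.024), Rpl19 (-0.19, adjusted p = 0.0235) and Rpl4 (-0.16, adjusted p = 0.0181), whose loop reaches into the tunnel, were the other 3. Rpl22 (-0.09, adjusted p = 0.374), Rpl23a (-0.17, adjusted p = 0.0757), Rpl26 (-0.14, adjusted p = 0.181), Rpl31 (-0.14, adjusted p = 0.181) and Rpl35 (-0.12, adjusted p = 0.209) did not pass.

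Elsewhere on the large subunit, Rpl29 and Rpl7a had the smallest p-values of the canonical genes. Rpl29 was one of the lowest of them in level, at 75.6, 76.3 and 65.4 FPKM with vehicle, 59.0, 53.6 and 56.6 with dexamethasone, and 58.1, 65.4 and 65.5 with dexamethasone plus THSG. All dexamethasone libraries lay under all vehicle libraries (-0.36 ± 0.07 (SE), limma adjusted p = 0.00193), and with THSG replicate 1 was inside the dexamethasone range while replicates 2 and 3 were at the lowest vehicle value. Rpl7a measured 602, 557 and 543 FPKM with vehicle and 489.9, 489.9 and 476 with dexamethasone, and its difference of -0.22 ± 0.05 (SE), limma adjusted p = 0.00394, although small, exceeded the spread of either group. Rpl10, which completes the large subunit late in its maturation in the cytoplasm, was -0.23 ± 0.06 (SE), limma adjusted p = 0.0105. Rpl3, which lies near the peptidyl transferase centre, was among the smallest differences to pass (-0.12, adjusted p = 0.0344). Rpl38, which is required for translation of a set of Hox mRNAs in the mouse embryo, did not pass (-0.12, adjusted p = 0.256).

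Rpl10a was the 1 canonical gene with a positive difference. Its libraries were 379, 387 and 347 FPKM with vehicle, 382, 390.1 and 370.4 with dexamethasone, and 379, 398 and 427 with dexamethasone plus THSG, with the groups overlapping, and the difference was 0.04 (95% interval -0.08 to 0.16, limma adjusted p = 0.637). Rpl14 (-0.03), Rpl7 (-0.07) and Rps15 (-0.07) were the next nearest to 0 beside Rpl5, and none of them passed.

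In the small subunit, Rpsa and Rps27 remained called lower with dexamethasone against vehicle under every setting tried. For dexamethasone plus THSG against vehicle, Rpsa was called in 13 and Rps27 in 16 of the 21 alternative settings. Rpsa, which is also known as the laminin receptor precursor and sits near the mRNA exit, was 316, 289 and 270.0 FPKM with vehicle, 244, 249 and 240.1 with dexamethasone, and 251, 266 and 251 with dexamethasone plus THSG. The vehicle group was higher than both others without overlap (-0.25 ± 0.06 (SE), limma adjusted p = 0.00439 with dexamethasone). Rps27, a zinc-finger protein, was 832, 719 and 651 FPKM with vehicle, 605, 559 and 571 with dexamethasone, and 650.0, 577 and 578 with dexamethasone plus THSG. Here too the groups given dexamethasone lay below vehicle (-0.34 ± 0.08 (SE), limma adjusted p = 0.00782), although vehicle replicate 3 and replicate 1 with THSG nearly coincided. Rps27a, which is made as a fusion with ubiquitin, was lower by a smaller step (-0.20, adjusted p = 0.0319).

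Of the 5 proteins at the mRNA channel and decoding centre, Rps23 (-0.28, adjusted p = 0.00743) and Rps2 (-0.18, adjusted p = 0.022) were lower, while Rps3 (-0.16, adjusted p = 0.106), Rps9 (-0.13, adjusted p = 0.058) and Rps15 (-0.07, adjusted p = 0.507) did not pass. Rps6, the substrate of the S6 kinases downstream of mTORC1, was lower with 484, 475 and 445 FPKM with vehicle and 425, 421 and 409 with dexamethasone (-0.16 ± 0.05 (SE), limma adjusted p = 0.0228). Rps4x, the X-linked form of S4, did not pass (-0.11, adjusted p = 0.0991). Rps28 had one of the largest differences of the small subunit but scattered from 667 to 969 FPKM with vehicle, overlapped between groups and did not pass (-0.37, adjusted p = 0.0584). Diamond-Blackfan anaemia is an inherited failure of red cell production. A list of 9 genes mutated in it was used, which is not the full set of such genes. Of these 9, 2 were lower (22.2%, near the 20.9% of all rows), namely Rps19 (-0.22, adjusted p = 0.0268) and Rpl11. The other 7 of the list, among them Rps10 (-0.17, adjusted p = 0.0734), did not pass. Rps14, whose loss underlies the anaemia of the 5q- syndrome, did not pass either (-0.14, adjusted p = 0.153).

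**Figure D3:**
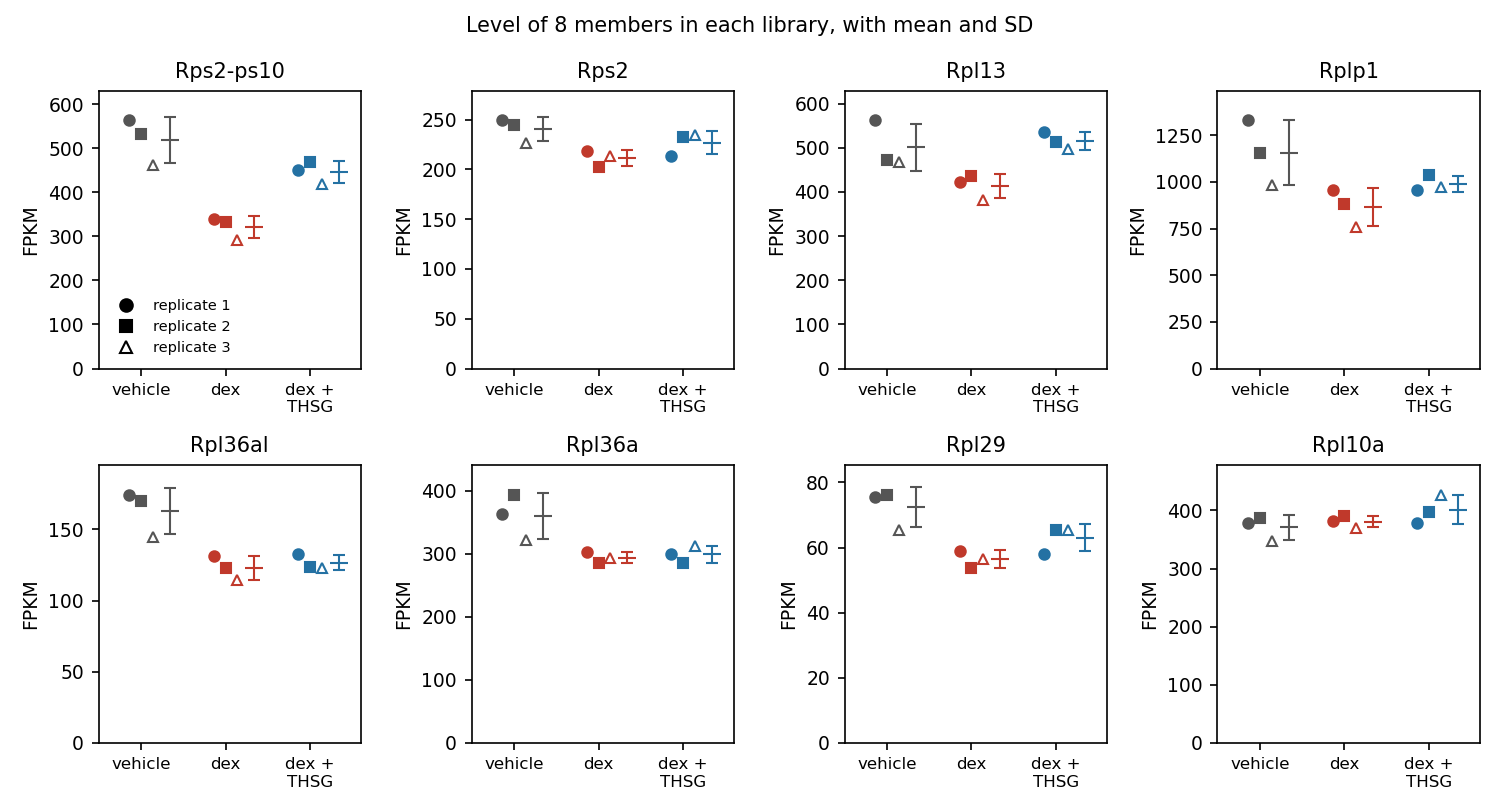
Level (FPKM, axes from 0) of 8 members in each library, by group; symbols are replicates 1 to 3 and the mark with bars is the mean with SD (n = 3). Rps2-ps10 falls from 461 to 563 FPKM with vehicle to 291 to 339 with dexamethasone and lies at 419 to 468 with dexamethasone plus THSG, Rpl13 is lowest with dexamethasone alone, and Rpl10a overlaps between the groups.

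With THSG added, the canonical genes lay slightly above their level with dexamethasone alone, but no single member passed the test. In limma 0 of 167 members were higher and 0 lower at an adjusted p under 0.05, and the share of all rows called was 0.0% in either direction. At an unadjusted p under 0.05, 13 members were higher (5.05% of all rows) and 2 lower (2.2%). The median log2 difference from dexamethasone was 0.07 over the canonical genes and 0.02 over all rows, with 76 of 77 canonical genes positive against 56.2% of all rows. That median was 0.02 under quantile normalization, with 24 of 77 genes negative, 0.02 with the length and GC correction, with 22 negative, and 0.04 without dexamethasone replicate 3, with 8 negative. For 17 canonical genes every library with THSG lay above every library with dexamethasone alone, which held for 8.41% of all rows. These counts share the dexamethasone libraries with the comparison above, in which dexamethasone replicate 3 was low. For 69 of 77 canonical genes the mean with THSG lay between the means of dexamethasone and vehicle. Of the 76 with a lower dexamethasone mean that is 90.8%, and of the 6325 rows of the table with a lower dexamethasone mean it was 52.8%. Both steps of this count use the same dexamethasone mean, and the canonical genes moved together by library. These shares are therefore a description and test no effect of THSG.

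Rpl13, a protein of the large subunit, was the canonical gene with the smallest p for THSG against dexamethasone. Its libraries were 562, 473 and 468 FPKM with vehicle, 422, 435 and 382 with dexamethasone, and 536, 513 and 496 with dexamethasone plus THSG. All 3 libraries with THSG were above all 3 with dexamethasone alone, and they lay within the vehicle range. The difference from dexamethasone was 0.32 ± 0.07 (SE), limma adjusted p = 0.348, and that from vehicle was 0.04, adjusted p = 0.703. Rpl41 (0.15, adjusted p = 0.683), Rps14 (0.16, adjusted p = 0.685) and Rps15 (0.18, adjusted p = 0.685) also had every THSG library above every dexamethasone library and did not pass. On the FPKM scale, the 6 canonical genes whose THSG mean exceeded both other means included Rpl13, Rps14, Rps15, Rpl5 and Rpl10a. In 2 genes, among them Rps13, the THSG mean was below both.

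Against vehicle, the group given dexamethasone plus THSG had 15 members lower, or 8.98%, and 0 higher in limma, when 17.0% of all rows were lower and 12.1% higher (14.04% and 14.6% under median-ratio scaling). At an unadjusted p under 0.05 the counts were 28 lower (23.1% of all rows) and 1 higher (16.0%). Of the canonical genes 7 of 77 were lower, namely Rpl39 (-0.30), Rps27 (-0.28), Rpl36a (-0.26), Rps23 (-0.20), Rpsa (-0.18), Rpl10 (-0.18) and Rpl12 (-0.17). Their median over all 77 was -0.09, against -0.04 over all rows, and 71 of 77 were negative, as were 57.5% of all rows. The median was -0.05 without vehicle replicate 1 (60 negative), -0.16 without vehicle replicate 3, -0.06 under median-ratio scaling (63 negative) and -0.04 with the length and GC correction (54 negative). All members together had 12 calls in common between the 2 comparisons with vehicle, which share those 3 libraries, with 30 called under dexamethasone alone and 3 under dexamethasone plus THSG alone. This is not a test of a difference between the 2 treatments. The 7 canonical calls became 1 without vehicle replicate 1, 2 without vehicle replicate 2, 28 without vehicle replicate 3, 4 without dexamethasone replicate 1 or 2, and 1 without replicate 2 or 3 with THSG. They were 3 under median-ratio scaling, 19 under quantile normalization, and 1 without the intensity trend in the variance. Of all rows 13.4% to 16.6% were lower in these settings.

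**Figure D4:**
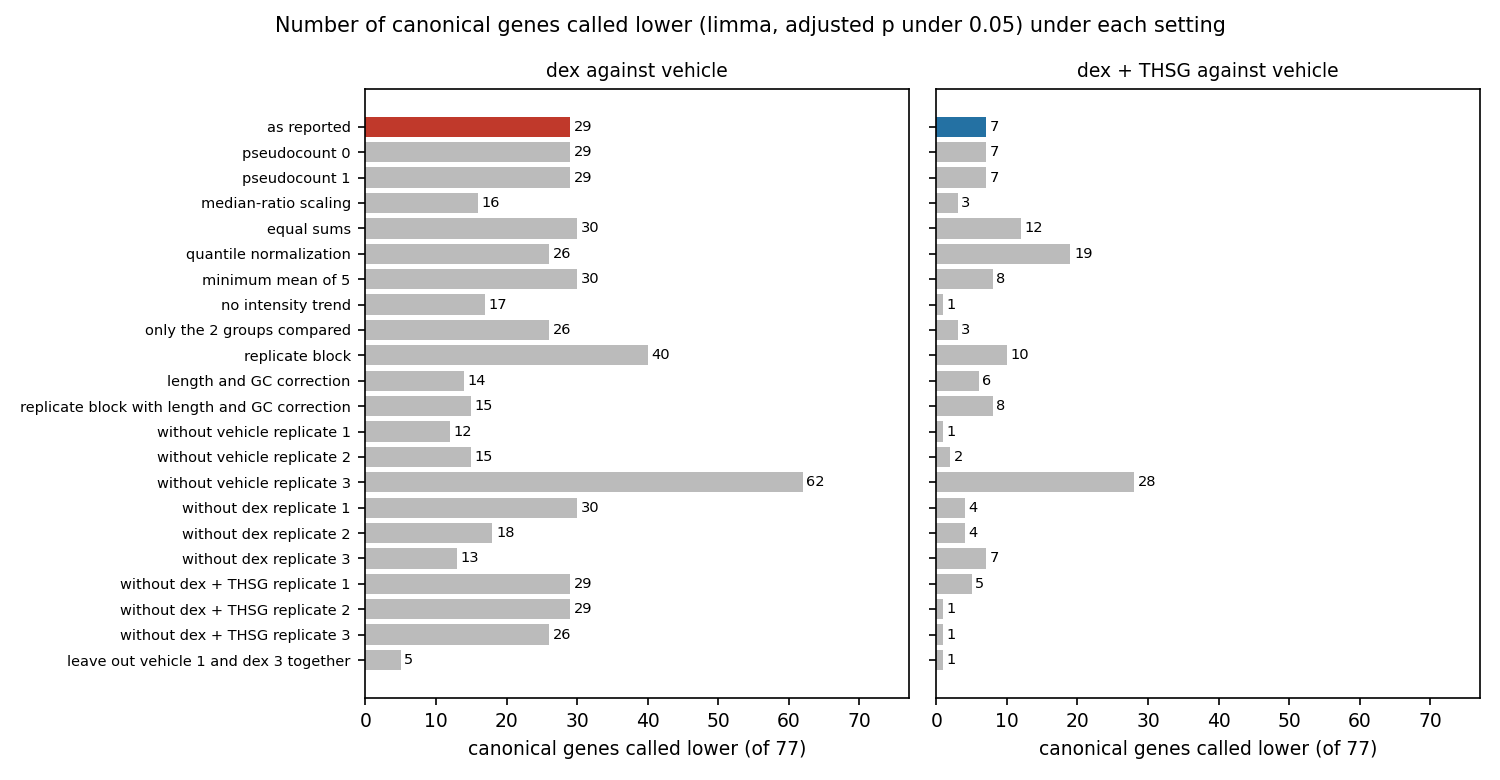
Number of the 77 canonical genes called lower (limma, adjusted p under 0.05, horizontal axis) than vehicle with dexamethasone (left) and with dexamethasone plus THSG (right), as reported (coloured bars) and under each alternative setting (grey bars). The counts run from 5 to 62 on the left and from 1 to 28 on the right, and are highest without vehicle replicate 3.

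Several ribosomal proteins have a second coding gene, and the pair Rpl36a and Rpl36al, an X-linked gene and its autosomal paralogue, was lower with dexamethasone as a whole. Rpl36al measured 175, 170.2 and 144 FPKM with vehicle, 131, 123 and 115 with dexamethasone, and 133, 124 and 123 with dexamethasone plus THSG. Both groups given dexamethasone were below all vehicle libraries and overlapped each other (-0.41 ± 0.07 (SE), limma adjusted p = 0.00114 with dexamethasone, -0.36, adjusted p = 0.0027 with dexamethasone plus THSG). Rpl36a, at a higher level, was 363, 394 and 322 FPKM with vehicle, 302, 285 and 294 with dexamethasone, and 299.96, 286 and 313 with dexamethasone plus THSG. It showed the same order of the groups, with -0.29 ± 0.07 (SE), limma adjusted p = 0.00631 for dexamethasone and -0.26, adjusted p = 0.0126 for dexamethasone plus THSG. Of the 2 pseudogene rows of this family, Rpl36a-ps3 was lower at 28.3, 23.8 and 26.7 FPKM with vehicle and 19.1, 18.1 and 20.6 with dexamethasone (-0.44 ± 0.10 (SE), limma adjusted p = 0.00482), and Rpl36a-ps2, at 73.9, 77.3 and 65.8 FPKM with vehicle and 67.8, 76.5 and 69.4 with dexamethasone, overlapped between groups and did not pass (-0.02, adjusted p = 0.895).

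The coding sequences show which row copies which gene. Rpl36a and Rpl36al were 87.7% identical over 318 coding bases. Rpl36a-ps2 was 100% identical to Rpl36a over that length. Rpl36a-ps3, in spite of its symbol, was 87.4% identical to Rpl36a and 99.7% identical to Rpl36al, with 1 differing base. Coding bases 126 to 185 of the 4 rows, from the GENCODE M21 transcripts, are given 5′ to 3′ because they separate both pairs, with capitals where a base differs from Rpl36a.
Rpl36a: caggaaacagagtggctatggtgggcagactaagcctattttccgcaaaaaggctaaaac
Rpl36a-ps2: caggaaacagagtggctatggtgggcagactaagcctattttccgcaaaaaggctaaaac
Rpl36al: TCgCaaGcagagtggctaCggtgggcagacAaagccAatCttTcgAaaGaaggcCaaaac
Rpl36a-ps3: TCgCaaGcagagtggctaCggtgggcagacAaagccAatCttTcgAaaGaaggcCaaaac
In this window of 60 bases Rpl36al and Rpl36a-ps3 had the same 12 differing bases, and Rpl36a-ps2 had none. The difference of Rpl36a-ps3 (-0.44) lay next to that of Rpl36al (-0.41). The other pair did not match in this way: Rpl36a-ps2, which overlaps Ddah1 on the same strand, had -0.02 against -0.29 for Rpl36a. Reads from such stretches cannot be assigned to one of 2 identical copies, and how the authors' counting treated them is not given in the sources used here.

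Rpl22l1 was lower and its paralogue Rpl22 was not called. Rpl22 binds RNA and is dispensable for the ribosome itself, and Rpl22l1 can take its place. Rpl22l1 was 75.7, 74.8 and 58.4 FPKM with vehicle, 56.2, 53.5 and 50.6 with dexamethasone, and 58.8, 53.2 and 58.9 with dexamethasone plus THSG, with the dexamethasone libraries below the vehicle libraries (-0.37 ± 0.09 (SE), limma adjusted p = 0.00732). Rpl22 was 333, 353 and 283 FPKM with vehicle and 306, 303 and 296 with dexamethasone, with overlap (-0.09, adjusted p = 0.374). Rps27l, a p53 target that is related to Rps27, measured 120.5, 129 and 113 FPKM with vehicle and 106, 106 and 112 with dexamethasone. Its dexamethasone libraries lay just under its vehicle libraries without passing the test (-0.16, adjusted p = 0.133). Whether either pair differs within itself was not tested. The other 6 copies without -ps did not pass, and the rows Rps3a2 (0.05) and Rps3a3 (0.05) had positive differences while Rps3a1, the gene they copy, had -0.11.

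The 81 pseudogene rows belong to 35 families, and every family's parent gene was in the table. Most were faint beside the parent, with a median level of 3.50% of it, 58 of 81 under 10% and 3 above the parent. The rows above the parent were Rps2-ps10 (189% of Rps2), Rps18-ps6 (155% of Rps18) and Rps26-ps1 (128% of Rps26), and Rpl3-ps1 followed with 65.4% of Rpl3. In spite of their symbols, 5 of the 81 rows are annotated as protein-coding, namely Rps18-ps6, Rps18-ps5, Rpl10-ps3, Rpl9-ps6 and Rps12-ps3. The copies were close in sequence, with a median coding identity of 99.5% to the parent and 70 of 81 at 98% or more. A median of 87.7% of the 50-base stretches of a pseudogene transcript occurred in at least 1 other annotated gene, against 43.9% for the canonical genes. A value of a pseudogene row can therefore hold reads of the parent and of other copies. Rpl35a-ps2, Rpl35a-ps3, Rpl35a-ps4 and Rpl35a-ps6 share 100% of their 50-base stretches, and their mean levels were 16.7, 16.1, 16.9 and 16.5 FPKM. Rps19-ps1 and Rps19-ps2, which also share 100%, were at 3.63 and 3.67 FPKM.

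With dexamethasone 11 of 81 pseudogene rows were lower (13.6%, against 20.9% of all rows) and 0 higher (12.7%), with a median log2 difference of -0.13. The count was 23 without vehicle replicate 3, 7 without vehicle replicate 1 or dexamethasone replicate 2, and 5 after the length and GC correction, in which the median was -0.004. In the same order, 19.0%, 16.5%, 18.2% and 16.2% of all rows were lower. The median of the pseudogene rows was -0.21 without vehicle replicate 3 and -0.08 under median-ratio scaling. Of the 32 rows with a mean of at least 20 FPKM 10 were lower (31.3%), against 20.9% of all rows at any level. Of the 49 pseudogene rows below 20 FPKM 1 was lower (2.04%), Rpl31-ps14. That level was chosen after the values were seen, and the median half-width of the 95% interval was 0.17 above it and 0.37 below it. Of the 11, 7 had a parent that was also called lower. Across the 81 rows the log2 difference of the pseudogene and that of its parent had a Pearson correlation of 0.28, as a description over rows that share parents, libraries and reads.

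**Figure D5:**
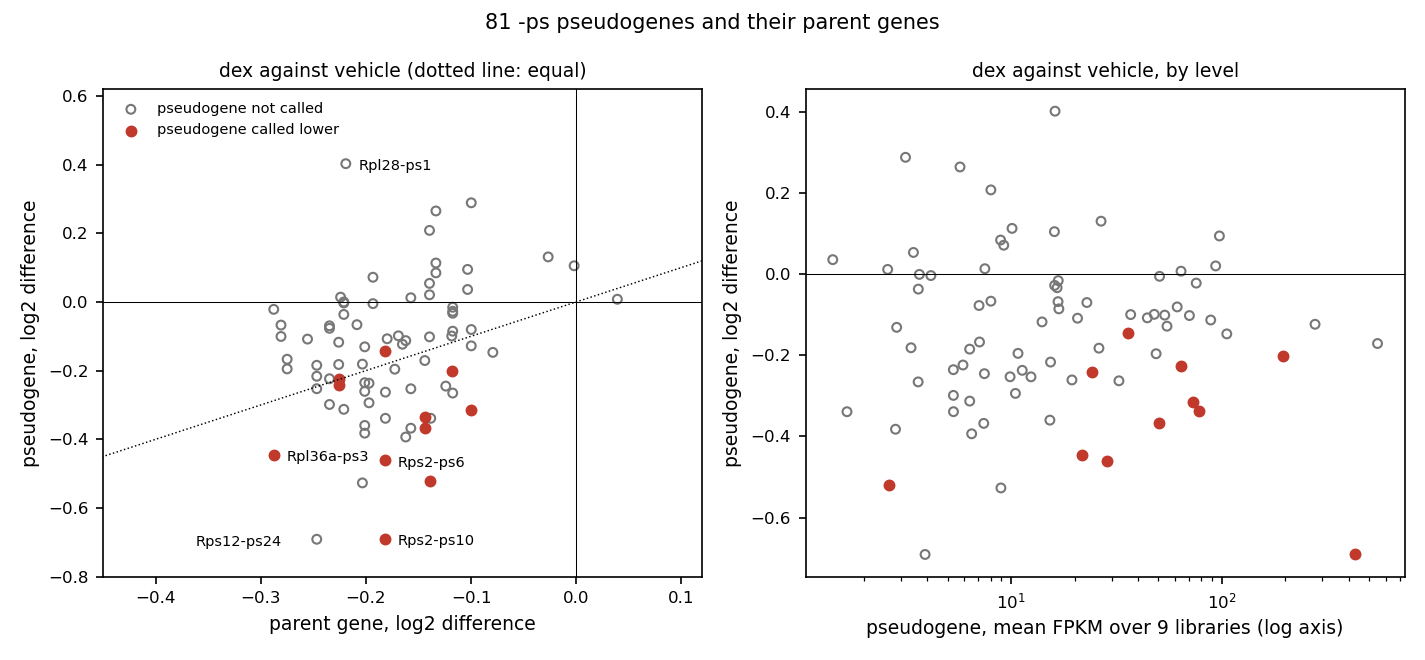
Log2 difference between dexamethasone and vehicle of the 81 pseudogene rows, plotted against that of the parent gene (left, with a dotted line where both are equal) and against the mean level of the row in FPKM on a log axis (right); red points were called lower (limma, adjusted p under 0.05). The 11 red points include Rps2-ps10 at -0.69, far below the -0.18 of its parent Rps2, and 10 of them have a mean of at least 20 FPKM.

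For dexamethasone against vehicle, Rps2-ps10 had the largest difference of the called members and the smallest p-value. It is annotated as a transcribed processed pseudogene of Rps2, which encodes a protein at the mRNA entry of the small subunit. Its libraries were 563, 532 and 461 FPKM with vehicle, 339, 333 and 291 with dexamethasone, and 451, 468 and 419 with dexamethasone plus THSG. The 3 groups did not overlap between dexamethasone and either other group, and the libraries with THSG overlapped the lowest vehicle library. The log2 difference was -0.69 ± 0.08 (SE), limma adjusted p = 4.16e-05 for dexamethasone against vehicle, 0.47 ± 0.08 (SE), limma adjusted p = 0.227 for dexamethasone plus THSG against dexamethasone, and -0.21, adjusted p = 0.0649 for dexamethasone plus THSG against vehicle. The parent Rps2 measured 249, 245 and 227 FPKM with vehicle, 219, 203 and 214 with dexamethasone, and 213, 233 and 235 with dexamethasone plus THSG, and its dexamethasone difference was -0.18, adjusted p = 0.022. The log2 ratio of the pseudogene to Rps2 was 1.11 ± 0.08 (SD, n = 3) with vehicle, 0.60 ± 0.14 with dexamethasone and 0.97 ± 0.12 with dexamethasone plus THSG.

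Other rows of the same family went in the same direction by different amounts. Rps2-ps6 measured 30.7, 34.5 and 31.03 FPKM with vehicle, 22.9, 25.01 and 21.9 with dexamethasone, and 34.1, 31.4 and 26.0 with dexamethasone plus THSG, with the dexamethasone libraries below both other groups (-0.46 ± 0.09 (SE), limma adjusted p = 0.00237 against vehicle, 0.38, adjusted p = 0.362 for THSG against dexamethasone). Rps2-ps8 was lower by a small step that passed narrowly (-0.14, adjusted p = 0.0497) and that became 0.03 after the length and GC correction. Rps2-ps13 (-0.26, adjusted p = 0.105) and Rps2-ps5 (-0.34, adjusted p = 0.189) did not pass. Rps2-ps10 and Rps2-ps6 shared 67.5% of the stretches of Rps2-ps6, and 96.3% of the stretches of Rps2-ps10 occurred in other genes. Coding bases 25 to 84 of Rps2 and of 3 of these rows (GENCODE M21), with capitals where a base differs from Rps2, show how few bases separate them.
Rps2: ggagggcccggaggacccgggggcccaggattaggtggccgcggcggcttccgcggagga
Rps2-ps6: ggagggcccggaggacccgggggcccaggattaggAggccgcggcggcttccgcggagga
Rps2-ps8: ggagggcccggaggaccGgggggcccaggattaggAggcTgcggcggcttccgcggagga
Rps2-ps13: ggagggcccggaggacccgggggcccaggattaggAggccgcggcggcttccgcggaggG
Only 1 to 3 of these 60 bases differed. The sequence of Rps2-ps10 was 99.4% identical to Rps2 over 893 aligned coding bases, with 5 differing bases.

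The remaining called rows stood at different distances from their parents. Rpl10-ps3, annotated as protein-coding and 100% identical to Rpl10 over 642 coding bases, measured 68.9, 76.7 and 66.1 FPKM with vehicle, 58.3, 60.5 and 61.97 with dexamethasone, and 61.2, 60.4 and 60.2 with dexamethasone plus THSG. Its difference of -0.23 ± 0.05 (SE), limma adjusted p = 0.00752 was like that of Rpl10 (-0.23), with which it shares 96.1% of its stretches. Rpl10-ps5, with 3 differing coding bases, was also lower (-0.24, adjusted p = 0.0132). Rpl3-ps1 was 211, 211 and 197 FPKM with vehicle, 184, 180.0 and 174 with dexamethasone, and 198, 194 and 204 with dexamethasone plus THSG. The dexamethasone libraries were below both other groups, and its difference (-0.20, adjusted p = 0.00408) stood beside -0.12 for Rpl3. Rpl15-ps6 was lower (-0.32, adjusted p = 0.00519) while Rpl15 was not called (-0.10, adjusted p = 0.198). Rps18-ps5 (-0.34, adjusted p = 0.0147), also annotated as protein-coding, and Rps18-ps3 (-0.37, adjusted p = 0.0324) were lower while Rps18 narrowly missed (-0.14, adjusted p = 0.0593). The faint row Rpl31-ps14 was 3.11, 2.98 and 3.48 FPKM with vehicle and 1.75, 2.38 and 2.51 with dexamethasone, without overlap, and its difference (-0.52, adjusted p = 0.0428) stood beside -0.14 for Rpl31, which did not pass. Of the abundant rows, Rps18-ps6 (-0.17, adjusted p = 0.061) and Rps26-ps1 (-0.12, adjusted p = 0.18) did not pass. Rpl28-ps1 had the most positive difference of the pseudogene rows (0.40, adjusted p = 0.134) and did not pass.

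Against vehicle, dexamethasone plus THSG had 6 pseudogene rows lower (7.41%, against 17.0% of all rows) and 0 higher (12.1%). Rpl36a-ps3 (-0.42, adjusted p = 0.00774), Rpl10-ps3 (-0.22, adjusted p = 0.0104) and Rpl15-ps6 (-0.21, adjusted p = 0.045) were also lower with dexamethasone alone. Rpl18-ps1, Rps19-ps6 and Rps10-ps2 were called here and not with dexamethasone alone. Rpl18-ps1 measured 9.93, 7.45 and 9.33 FPKM with vehicle, 9.27, 8.56 and 7.57 with dexamethasone, and 6.66, 6.57 and 6.82 with dexamethasone plus THSG, and its 3 libraries with THSG lay below all others (-0.40 ± 0.11 (SE), limma adjusted p = 0.0183). Its longest alignment to the Rpl18 coding sequence covered 42 bases at 71.4% identity. Rps19-ps6 was 10.1, 7.08 and 7.14 FPKM with vehicle, 6.39, 7.26 and 5.69 with dexamethasone, and 4.52, 6.11 and 2.96 with dexamethasone plus THSG, a faint row that lies within Tecpr2 on the same strand (-0.86 ± 0.22 (SE), limma adjusted p = 0.012). The count of 6 was 2 without vehicle replicate 1 and 10 without vehicle replicate 3.

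The promoters of the canonical genes were searched for short motifs because the genes moved together within and between groups. Of the 77 genes 57 had an entry in the RefSeq promoter table (build GRCm38.p6), with 67 promoters of 300 bases, 250 before and 50 from the start. CCGGAAG, the core bound by ETS factors, occurred on either strand in 37.3% of them and in 8.86% of all 32851 promoters. AAGATGG, the core of the YY1 motif, was in 16.4% and 6.34%, and the E box CACGTG in 11.9% and 7.15%. The glucocorticoid receptor half-site AGAACA was in 13.4% and 19.0%, and its palindrome, AGAACA and TGTTCT separated by 3 bases, was in 0 of 67 and in 0.00913% of all. CTTTC, a pyrimidine stretch, lay within 20 bases of the start on the gene's strand in 26.9% and 5.5%. Among the promoters of genes called lower with dexamethasone CTTTC was in 8 of 25, and among those not called in 10 of 42, while CCGGAAG was in 8 of 25 and 17 of 42. A match is a description of letters and shows no binding.

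Stretches from 50 bases before to 15 bases from the start are given for 5 genes, 4 that were lower with dexamethasone and Rpl5, which was not, with CTTTC in capitals. CCGGAAG occurs in none of these stretches on either strand. They lie at chr3:90213634-90213698 (Rps27, minus strand), chr2:32961662-32961726 (Rpl12, plus strand), chr2:26910757-26910821 (Rpl7a, plus strand), chr12:69184053-69184117 (Rpl36al, minus strand) and chr5:107900478-107900542 (Rpl5, plus strand) of GRCm38.p6, and were chosen after the values were seen.
Rps27: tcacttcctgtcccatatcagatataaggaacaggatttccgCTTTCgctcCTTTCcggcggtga
Rpl12: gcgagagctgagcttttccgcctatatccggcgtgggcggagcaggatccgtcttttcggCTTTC
Rpl7a: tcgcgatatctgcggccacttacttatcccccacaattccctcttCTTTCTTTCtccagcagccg
Rpl36al: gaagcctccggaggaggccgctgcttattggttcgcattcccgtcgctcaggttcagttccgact
Rpl5: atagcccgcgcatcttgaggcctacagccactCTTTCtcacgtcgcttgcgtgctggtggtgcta
Rps27, Rpl12 and Rpl7a, which were lower, and Rpl5, which was not called, have CTTTC near the start, and Rpl36al, the gene with the smallest p-value of the 5, has no CTTTC in this stretch.

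Other genes of the ribosome's production line were taken from lists chosen with earlier results of these data known. Of 24 TOP mRNAs and ribosome-associated genes that are not members, 5 were lower (20.8%, against 20.9% of all rows) and 1 higher with dexamethasone, with a median of -0.06. Fau, whose product is a ubiquitin-like protein fused to ribosomal protein S30, fell from 404 ± 16.9 to 335 ± 16.8 FPKM (SD, n = 3; -0.27 ± 0.05 (SE), limma adjusted p = 0.00131) and was at 379 ± 6.74 with THSG. Rack1, a scaffold on the small subunit, did not pass (-0.14, adjusted p = 0.0712). Hnrnpa1 (-0.28, adjusted p = 0.00126), an RNA-binding splicing factor, and the elongation factor subunit Eef1g (-0.20, adjusted p = 0.0104) were lower, as was the initiation factor subunit Eif3k (-0.15, adjusted p = 0.0142).

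Of 75 ribosome assembly genes with a row (of 80) 5 were lower (6.67%) and 1 higher (1.33%), against 20.9% and 12.7% of all rows, with a median of -0.03. Imp3, a component of the small-subunit processome, was lower (-0.54, adjusted p = 0.000648), as were Fbl (-0.39, adjusted p = 0.0144), the rRNA methyltransferase fibrillarin, Gar1 (-0.53, adjusted p = 0.0223), a protein of pseudouridylation particles, and Mrto4 (-0.26, adjusted p = 0.0113), an assembly factor related to Rplp0. Of 20 RNA polymerase I genes with a row 1 was lower, Polr2l (-0.39, adjusted p = 0.00714), a small subunit shared by several polymerases. Polr1h (-0.31, adjusted p = 0.0632), Ubtf (-0.14, adjusted p = 0.116) and Taf1d (0.22, adjusted p = 0.161) did not pass. Among 31 regulators (of 32), 6 were lower (19.4%) and 5 higher (16.1%), near the 20.9% and 12.7% of all rows. Eif4ebp2, a repressor of cap-dependent initiation, was higher (0.45, adjusted p = 2.39e-05) and its paralogue Eif4ebp1 was lower (-0.38, adjusted p = 0.0203). The kinase Rps6ka3 was higher (0.41, adjusted p = 0.000222), while Rps19bp1 (-0.61, adjusted p = 9.4e-05), which binds Rps19, and the stress kinase Eif2ak3 (-0.64, adjusted p = 0.000976) were lower. Myc, which drives ribosomal gene transcription, did not pass (0.19, adjusted p = 0.297).

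The mitochondrial ribosome, a separate machine encoded by other nuclear genes, had 12 of 82 rows (14.6%) lower and 1 (1.22%) higher with dexamethasone, against 20.9% and 12.7% of all rows, with a median of -0.12. The 82 rows include the pseudogenes Mrpl27-ps, Mrps36-ps2, Mrpl48-ps and Mrpl23-ps1, none of which was called. Mrpl52 went from 127 to 83.4 FPKM (-0.60 ± 0.12 (SE), limma adjusted p = 0.00207), and Mrpl34 (-0.45, adjusted p = 0.00197), Mrps2 (-0.30, adjusted p = 0.00298) and Mrpl28 (-0.28, adjusted p = 0.00719) were the next by p-value. Of the 13 mitochondrially encoded genes 2 were higher, mt-Nd4 (0.37, adjusted p = 0.00995) and mt-Atp6 (0.29, adjusted p = 0.0388), and 0 lower. Against dexamethasone alone, addition of THSG gave 0 calls in each of these lists in limma.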

How the data were processed

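The deposited table holds 9 mRNA-seq libraries and 10716 rows. Alignment software STAR 2.7.10a, the read counter featureCounts and build GRCm39 (mm39) are listed in the submitters' processing notes, without order or settings. The table is titled as counts, but its fractional values, all above 1, were taken to be FPKM that the authors computed and filtered before they deposited them. The unit is inferred from the values, and strand setting, gene lengths, treatment of multi-mapped reads and filter are not given in the sources used here. Depth is therefore unknown, and no counting interval was computed.

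Values were analysed as log2(FPKM + 0.1), which understates changes of low rows, with limma 3.58.1 (R 4.3.3) with an intensity trend in the variance, fitted to all rows and all 9 libraries with the 3 groups as terms. Two-sided p-values were adjusted by Benjamini-Hochberg over all 10716 rows, with calls at 0.05. SE and 95% intervals are limma's. The fit was tested on simulated data in which every gene was drawn independently. That test does not cover genes that move together by library, as the canonical genes did.

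Members and lists were chosen with earlier results of these data known. Genes were named by a rule: the 10 members with the smallest p for dexamethasone against vehicle and the 6 smallest for each other comparison, the 5 highest and 5 lowest, pseudogenes with parents (by counts and ranges where not called), members of known role, and up to 4 genes of each further list with Fau and Rack1. A few genes that the rule or the counts include are not reported here by name. Other named genes, such as Rpl12, Rpl4, Rps9, Rps28 and Myc, the role groups, level split and shown sequences were chosen after their values were seen. Identifiers of all 167 members matched GENCODE M21 (GRCm38), which gave transcript length, GC content, biotype and coding sequence, the longest protein-coding transcript being used, and 7 members carry another symbol there. Shared stretches are exact 50-base words found in transcripts of another gene. Of 289 pseudogenes of these families annotated by symbol, 75 had a row. Rpsa and Rplp2 pseudogenes fall outside the rule. Alternatives tried were other pseudocounts, scalings, a higher minimum, variance settings, a replicate block, a length and GC correction, and leaving out libraries.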

Additional observations from a re-analysis of the deposited data

How the results depend on the processing

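Pseudocounts of 0 and 1 left all counts given here and all calls followed as they were. The number of canonical genes lower with dexamethasone (29) became 16 under median-ratio scaling, 17 without the intensity trend, 14 with the length and GC correction, and 12 to 62 when 1 library was left out. The corresponding pseudogene count (11) became 5 with the correction and 7 to 23 with 1 library left out, and members higher (0) became 6 and 0 to 1. Against vehicle, dexamethasone plus THSG had 7 canonical genes lower, which became 3 under median-ratio scaling, 12 with equal sums, 19 under quantile normalization, 1 without the trend, 3 with only the 2 groups compared and 1 to 28 with 1 library left out. Its pseudogene count (6) became 2 to 10 with 1 library left out. Its members higher (0) became 7 with the correction, 0 to 1 with 1 library left out, and 1 (Rpl9-ps7) under median-ratio scaling, quantile normalization and with the 2 groups alone. With the correction 17.6% of all rows were higher with dexamethasone and 16.5% with dexamethasone plus THSG. With vehicle replicate 1 and dexamethasone replicate 3 both left out, chosen after seeing the data, canonical genes lower were 5 with dexamethasone and 1 with dexamethasone plus THSG, pseudogenes 7 and 2, and members higher in the latter comparison 1. The cause of these shifts was not tested, except that leaving out libraries leaves fewer samples.

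Over all rows, replicate numbers did not pair the libraries: deviations of same-numbered libraries correlated at -0.09 to 0.11, with 1 of 9 pairs above 0.1. The canonical genes had a partly shared order. Replicate 1 was the highest for 57 of 77 with vehicle, 51 with dexamethasone and 43 with dexamethasone plus THSG. Replicate 3 was the lowest for 77 with vehicle and 56 with dexamethasone, but replicate 2 for 50 with dexamethasone plus THSG. Whether the numbers mark a shared batch was not tested. With the replicate block the canonical counts against vehicle were 40 and 10, and 1 member, Rps2-ps10, was higher with dexamethasone plus THSG than with dexamethasone (0.47, limma adjusted p = 0.0215), as it was with the block and the length and GC correction together (1 member, 0.41). Block and correction together gave 15 canonical genes, 5 pseudogenes and 5 higher members for dexamethasone, and 8 higher members for dexamethasone plus THSG.

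Rps2-ps8 changed sign, to 0.0298, with the length and GC correction, with and without the block. The members' share of the summed values was 8.88%, 7.94% and 8.32% in vehicle, dexamethasone and dexamethasone plus THSG without pseudogenes, and 10.95%, 9.92% and 10.30% without mitochondrially encoded genes. Single genes were followed only where called or among the smallest p-values of a comparison, and no other one changed sign. Depth, which is unknown, limits what can be said of the faint pseudogene rows.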
